A study of Mus musculus with 8 samples.

Results

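Small nucleolar RNA (snoRNA) fragments were followed in mesenchymal stromal cells (MSCs) of mouse pancreas (pMSCs) and of inguinal white adipose tissue (iwatMSCs). The snoRNA rows were chosen by their mean read count: of 370 rows that the authors' small RNA table types as snoRNA, 194 had a mean of at least 1 read over the 8 libraries, a filter that does not use the tissue. These 194 rows are part of 3861 small RNA rows past the same filter, out of 5716 rows in all. Both tissues came from male C57BL/6J mice of 8 weeks, with no treatment in either group. Cells were sorted by FACS as CD45-, CD31- and SCA1+, which removes blood and endothelial cells, and were grown for 4 days. Each library held pooled cells of 3 to 5 mice. Libraries 5, 6, 7 and 8 are pMSCs and libraries 13, 14, 15 and 16 are iwatMSCs. Pancreas and fat were taken from the same mice, but no label says which animals went into which library, so libraries were tested as independent and p-values measure the spread between pools.

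snoRNAs are stable nuclear RNAs that guide enzymes to other RNAs. C/D box snoRNAs direct ribose methylation, H/ACA box snoRNAs direct the conversion of uridine to pseudouridine, and small Cajal body RNAs (scaRNAs) guide the same changes in spliceosomal RNAs. A few, among them U3, are needed for cutting and folding of the rRNA precursor. In mammals most snoRNAs are cut out of introns of host genes, many of which make ribosomal proteins or parts of the translation machinery. A library made for RNAs of miRNA size holds mainly pieces of the longer snoRNAs, so a level here is a level of small RNA reads and not of the intact snoRNA.

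Of the 194 rows, 86 were C/D box, 49 H/ACA box and 13 scaRNA families. Another 31 bear Rfam names given for RNAs of other organisms, such as archaea, yeasts and other fungi, and 15 have other names. Classes were read from the names. Among the other names, MBII-202 matched the gene Snord68 and U6-53/MBII-28 the gene Snord8, so the C/D box count and share are lower bounds. The rest of the other names, U2-19, U2-30 and U89 among them, were not assigned to a class. The H/ACA box and scaRNA counts and shares may thus be too low as well. U2-19 alone had a mean of 306 reads, against 61.4 for SCARNA6, the row with most reads among those with scaRNA names. The source of reads assigned to names of another organism in a mouse library was not tested. By name, 92 of the 194 families could be matched to genes of GENCODE M21 (GRCm38). A family without a match may still have a mouse gene under another name. Of the 108 matched genes, 100 lay within another gene on the same strand, 27 of them in a ribosomal protein gene. A family can have several copies, as U3 and SNORD14 do. Their reads are pooled in the row of the family and cannot be told apart here.

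The sequences of 7 genes are shown because the results below turn on their families: U3 holds the most reads, SNORD104 and SNORD78 varied widely among libraries of a tissue, SNORD14 did not follow that pattern, and SNORD99, SNORD69 and SNORA23 were among the rows with the lowest unadjusted p between the tissues. Capitals mark the C box (TGATGA within the first 20 bases), the D box (CTGA within the last 20 bases) or, for SNORA23, the ACA within the last 6 bases, searched on the gene's own strand.
Rnu3a: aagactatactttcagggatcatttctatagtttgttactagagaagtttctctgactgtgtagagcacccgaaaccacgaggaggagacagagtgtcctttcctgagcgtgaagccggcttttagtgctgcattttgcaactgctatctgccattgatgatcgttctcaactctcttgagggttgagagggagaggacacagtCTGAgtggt
Snord104: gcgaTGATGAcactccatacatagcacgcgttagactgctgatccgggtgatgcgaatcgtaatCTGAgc
Snord78: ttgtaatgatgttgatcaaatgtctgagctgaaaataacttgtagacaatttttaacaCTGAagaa
Snord14d: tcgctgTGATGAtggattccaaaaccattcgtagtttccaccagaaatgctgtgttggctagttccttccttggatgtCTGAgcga
Snord99: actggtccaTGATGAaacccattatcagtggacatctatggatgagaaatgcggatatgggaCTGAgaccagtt
Snord69: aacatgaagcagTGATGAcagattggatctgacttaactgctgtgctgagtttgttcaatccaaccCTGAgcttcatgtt
Snora23: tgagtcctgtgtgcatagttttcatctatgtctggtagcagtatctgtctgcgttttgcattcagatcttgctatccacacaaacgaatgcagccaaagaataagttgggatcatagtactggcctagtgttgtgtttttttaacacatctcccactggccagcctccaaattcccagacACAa
In GRCm38, Rnu3a lies at chr10:40258467-40258679 on the plus strand, outside another gene. Snord104 is at chr11:106500993-106501062 (plus), Snord78 at chr1:161036984-161037049 (plus) within Gas5, and Snord14d at chr9:40803995-40804080 (plus) within Hspa8. Snord99 lies at chr4:132310691-132310764 (plus) within Snhg12, Snord69 at chr14:31014287-31014366 (minus) within Gnl3, and Snora23 at chr7:110046364-110046547 (plus) within Ipo7. The exact C box letters are not in these windows of Rnu3a and Snord78. Among 69 genes of C/D box families with a mean of at least 1 read, 62.3% held this C box and 98.6% this D box, and 88.5% of 26 H/ACA genes held the ACA. Over all 1529 snoRNA and scaRNA genes of GENCODE M21, which mix the classes, the shares were 21.6%, 34.7% and 46.2%.

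A library held 20793619 to 25824261 reads in all, and snoRNA rows took 0.0617% to 0.233% of them. Library sizes thus differed little, while snoRNA reads ranged from 13295 to 51834. For snoRNA rows the deposited "TPM" lies close to the read count in 7 libraries but not in pMSCs library 7, as described below. For mature miRNA rows it is 37.9% to 45.8% of the reads in those 7 and 0.0126% in library 7. Read counts were therefore used throughout. The study's methods state that an outlier library was left out of its miRNA analysis and do not name it, and all 8 libraries were used here. Levels are CPM, read counts made comparable between libraries by their totals and TMM factors over all rows. Summed stromal marker miRNAs (miR-199a, miR-199b, miR-214, miR-143, miR-145a and miR-21a) ranged from 43121 to 45334 CPM in pMSCs and from 37023 to 43099 CPM in iwatMSCs. Summed epithelial miRNAs (the miR-200 family) ranged from 97.8 to 216 CPM in pMSCs and from 5.00 to 8.04 CPM in iwatMSCs, with 1 of 10 arms at 0 reads in both tissues. Acinar miRNAs (miR-216a, miR-216b, miR-217 and miR-802) ranged from 4.87 to 22.4 CPM and from 0.249 to 0.528 CPM. Both sets were thus higher in every pMSCs library, and their part in any snoRNA difference was not tested. Haematopoietic miRNAs ranged from 16.9 to 31.7 CPM in pMSCs and from 21.96 to 43.0 CPM in iwatMSCs, islet miRNAs from 421 to 766 and from 458 to 671, miR-126a of endothelium from 88.0 to 152 and from 73.8 to 130, and neural miRNAs from 23.8 to 30.4 and from 42.5 to 58.4. In bulk libraries, fewer cells of a type and less RNA per cell cannot be told apart.

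Libraries of the same tissue differed widely in snoRNA content. The snoRNA share of reads was 0.145%, 0.141%, 0.165% and 0.0718% in pMSCs libraries 5, 6, 7 and 8. It was 0.110%, 0.181%, 0.0617% and 0.233% in iwatMSCs libraries 13, 14, 15 and 16. Libraries 8 and 15 were lowest in their tissues, and the tissues overlapped throughout, with 0.131% ± 0.041 in pMSCs and 0.146% ± 0.076 in iwatMSCs (SD, n = 4 each). The 95% Wilson interval for library 8, 0.0707% to 0.0729%, lies far from that of library 6, 0.139% to 0.142%, but such intervals cover counting error only. tRNA reads were also low in libraries 8 and 15, at 0.0423% and 0.0300% of reads against 0.0585% to 0.121% in the other 6. snRNA reads were lowest there too, at 0.00584% and 0.00538% against 0.00595% to 0.0195%. rRNA reads did not stand apart in this way. Library 8, at 0.396%, lay close to libraries 6 and 7, at 0.406% and 0.424%, and library 15, at 0.704%, lay above library 13, at 0.499%. The part of these classes in the snoRNA values was not tested.

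U3, the C/D box snoRNA of rRNA precursor cleavage, had the most reads of any snoRNA row. It held 666, 665, 682 and 479 CPM in pMSCs libraries 5 to 8 and 445, 418, 135 and 577 CPM in iwatMSCs libraries 13 to 16. The tissues overlapped only through pMSCs library 8 and iwatMSCs library 16. Mean levels were 623 ± 96.3 and 394 ± 186 CPM (SD, n = 4 each), a log2 fold change of 0.66 (SE 0.39) of pMSCs over iwatMSCs with an edgeR adjusted p of 0.396 and a two-sided exact permutation p of 0.0571. Without library 15 the log2 fold change was 0.40. U3 made up 40.8% to 66.3% of snoRNA reads in pMSCs and 21.8% to 42.1% in iwatMSCs. Its share was highest in library 8, where U3 stood at 0.714 of the mean of the other 3 pMSCs libraries.

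The 10 rows with most reads took 68.0% to 83.3% of the snoRNA reads of a library. All were C/D box families, and this order is of reads, not of reads per length. C/D box rows held 90.1% to 93.7% of the snoRNA reads, H/ACA rows 2.43% to 5.42%, and scaRNA rows 0.393% to 0.842%. Rows named for another organism held 0.865% to 3.99% and rows with other names 1.12% to 4.01%. C/D box rows thus held most snoRNA reads in every library. The shares are parts of a whole, so a change in a class is balanced by the others. Between 159 and 193 of the 194 rows had at least 1 read in a library.

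**Figure D1:**
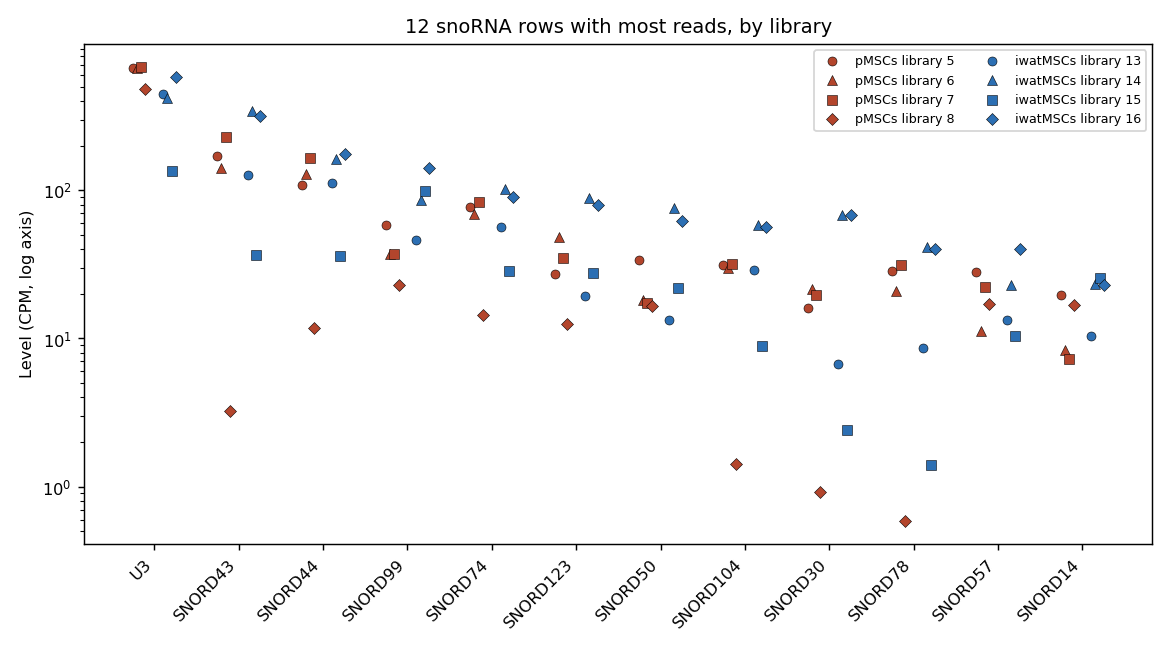
Levels of the 12 snoRNA rows with most reads in each library, in CPM on a log axis, with pMSCs libraries in red and iwatMSCs libraries in blue, 1 point per library. pMSCs library 8 lies at 3.26 CPM for SNORD43 and at 0.585 CPM for SNORD78, well below the other pMSCs libraries, while for SNORD14 it lies among them.

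SNORD43, a C/D box snoRNA of an intron of Rpl3, held 171, 142, 228 and 3.26 CPM in pMSCs libraries 5 to 8. It held 126, 345, 36.8 and 317 CPM in iwatMSCs libraries 13 to 16. Library 8 was at 0.0181 of the mean of the other 3 pMSCs libraries and library 15 at 0.140 of the mean of the other 3 iwatMSCs libraries. The log2 fold change between tissues was -0.60 (SE 1.04, edgeR adjusted p = 0.846), and ranged from -0.97 without library 7 to -0.19 without library 8, with -0.23 without 14, -0.91 without 15 and -0.28 without 16.

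SNORD104, a guide of rRNA methylation, held 31.3, 29.7, 31.6 and 1.42 CPM in the pMSCs libraries, so 3 libraries lay close together and library 8 far below. In iwatMSCs it held 28.8, 58.0, 8.84 and 56.1 CPM. SNORD123, which lies within the non-coding host gene Snhg18, held 27.0, 48.1, 34.8 and 12.5 CPM in pMSCs and 19.4, 88.3, 27.7 and 80.1 CPM in iwatMSCs. For both, libraries 14 and 16 were the highest of all 8. The log2 fold changes were -0.69 (SE 0.86) and -0.82 (SE 0.57), with edgeR adjusted p of 0.766 and 0.515. SNORD104 was at -0.30 without library 8, -0.41 without 14 and -0.42 without 16, and SNORD123 at -0.47 without library 14 and -0.54 without 16.

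SNORD50 of the host gene Snhg5 held 34.0, 18.1, 17.4 and 16.5 CPM in pMSCs and 13.2, 76.3, 21.9 and 62.2 CPM in iwatMSCs, again with libraries 14 and 16 highest. Its log2 fold change was -1.01 (SE 0.56, edgeR adjusted p = 0.377), and -0.59 without library 14. SNORD57, from an intron of Nop56, which encodes a core protein of C/D box particles, held 28.2, 11.3, 22.4 and 17.01 CPM in pMSCs and 13.3, 23.0, 10.4 and 40.3 CPM in iwatMSCs. For SNORD57 library 8 was not the lowest pMSCs library, and the log2 fold change was -0.14 (SE 0.46, edgeR adjusted p = 0.931).

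Over the 194 rows, library 8 was the single lowest pMSCs library for 101 and library 15 the single lowest iwatMSCs library for 90, followed by library 13 for 73. Libraries 14 and 16 were the highest iwatMSCs library for 101 and 74 rows, and library 5 the highest pMSCs library for 102. The shift was uneven between rows. Among 30 rows with a mean of at least 100 reads, library 8 stood at a median of 0.273 of the mean of the other 3 pMSCs libraries, below 0.5 for 18 rows and below 0.1 for 10. Library 15 stood at a median of 0.319 of the other 3 iwatMSCs libraries, below 0.5 for 22 rows and below 0.1 for 4. Library 13 was also low, at a median of 0.491 and below 0.5 for 15 rows, though below 0.1 for only 1. All 18 rows that were below 0.5 in library 8 were also below 0.5 in library 15. Across the 29 of these rows with reads in library 8, the log2 ratios of the 2 libraries had a Pearson r of 0.77 and a Spearman rho of 0.74, given as a description, since all rows of a library share its preparation and scaling.

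**Figure D2:**
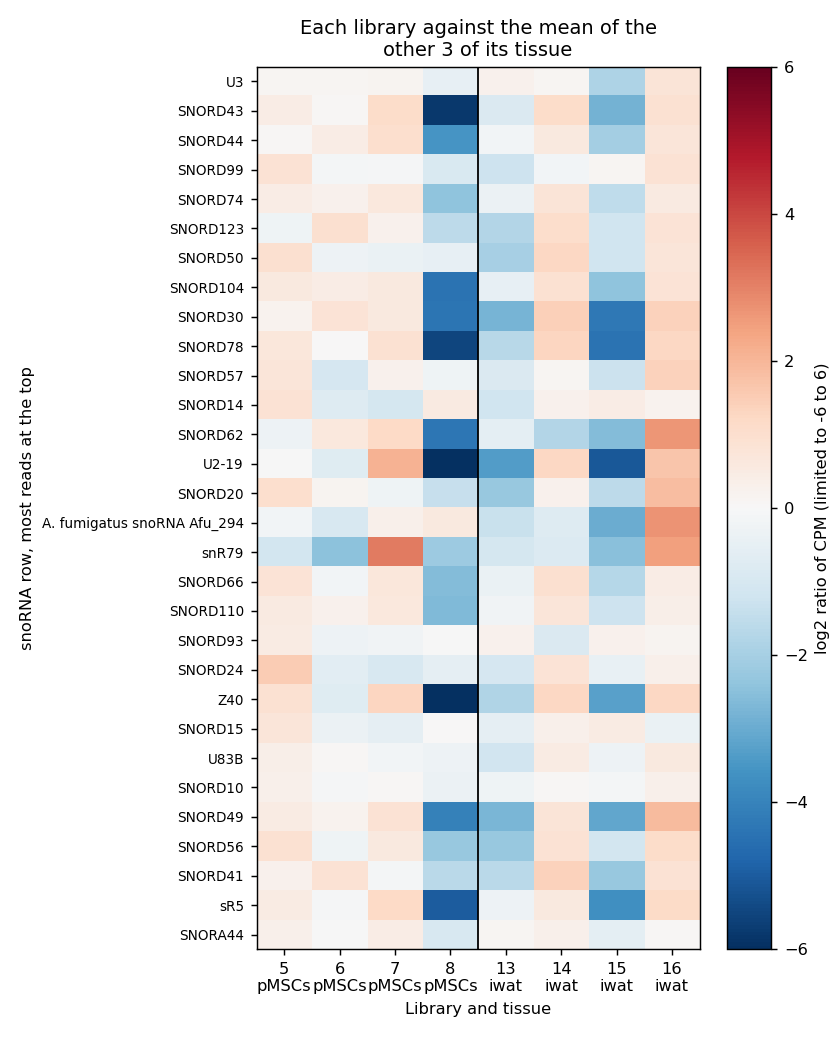
Each library's CPM over the mean of the other 3 libraries of its tissue, as a log2 ratio (blue low, red high, with the ends of the colour scale as limits), for the 30 snoRNA rows with a mean of at least 100 reads. Libraries 8 and 15 are blue for many of the same rows, SNORD43, SNORD30 and SNORD78 among them, and near white for SNORD15, SNORD93 and SNORD10.

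Some rows did not follow libraries 8 and 15. SNORD93, a C/D box row chosen here after its values were seen, stood at 0.992 of the other 3 libraries in library 8 and at 1.20 in library 15. SNORD15, of an intron of Rps3, stood at 1.01 and 1.43. SNORD14, also known as U14 and needed for making small-subunit rRNA, stood at 1.44 and 1.35. Over 27 snoRNA rows with a mean of at least 5 CPM, the median within-tissue SD of log2(CPM + 1) was 0.95, from 0.16 for SNORD10 to 2.18 for SNORD43. The median was 0.29 over 358 mature miRNA rows, 0.58 over 172 piRNA-annotated rows and 0.74 over 8 rRNA rows at the same level. Over rows with a mean of at least 10 reads, it was 0.43 for 113 snoRNA rows, 0.29 for 662 mature miRNA rows and 0.55 for 699 piRNA-annotated rows, so the order against piRNA rows depended on the level. Among the 64 of these snoRNA rows with an annotated length, the SD rose with log2 mean reads (Pearson r = 0.64). Uneven rows thus tended to be those with more reads.

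Gas5, a non-coding host gene named for growth arrest, carries several C/D box snoRNAs in its introns, and 6 of its snoRNA rows in the table all had a mean of at least 1 read. SNORD44 held 108, 129, 165 and 11.7 CPM in pMSCs libraries 5 to 8 and 113, 163, 36.3 and 175 CPM in iwatMSCs libraries 13 to 16. SNORD74 held 76.9, 69.4, 83.8 and 14.3 CPM and 56.9, 101, 28.6 and 90.3 CPM. SNORD78, whose sequence is given above, held 28.5, 20.78, 31.4 and 0.585 CPM and 8.65, 41.1, 1.41 and 40.2 CPM. SNORD75, with a mean of 74.1 reads against 488 for SNORD78, was far more even, with 3.61, 2.96, 2.75 and 2.17 CPM and 2.56, 5.16, 2.20 and 4.56 CPM. Library 8 thus stood at 0.0218 of the other pMSCs libraries for SNORD78 and at 0.187 for SNORD74, although introns of 1 host transcript carry both. None of the 6 rows was called, the median log2 fold change was -0.21 against -0.17 over all rows tested, and the fold changes of SNORD44 (-0.23), SNORD74 (-0.18) and SNORD78 (-0.17) became 0.14, 0.15 and 0.24 without library 8.

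Snhg1, a second non-coding snoRNA host gene, had 8 rows in the table, of which 6 had a mean of at least 1 read. SNORD30 held 16.2, 21.7, 19.6 and 0.919 CPM in pMSCs and 6.68, 68.3, 2.42 and 67.9 CPM in iwatMSCs, the widest range of the Snhg1 rows. SNORD26 held 1.73, 1.44, 1.44 and 1.34 CPM and 1.26, 1.90, 1.54 and 1.53 CPM, the even case within the same host gene. It had far fewer reads, with a mean of 34.8 against 585.5 for SNORD30. SNORD22, which in frog oocytes is needed for small-subunit rRNA, held 4.60, 1.56, 1.35 and 3.18 CPM and 1.93, 2.94, 2.33 and 1.99 CPM, and SNORD28 held 4.44, 1.13, 3.07 and 2.30 CPM and 0.672, 2.35, 2.02 and 1.16 CPM. None was called, with a median log2 fold change of -0.28. SNORD30 was at -1.31 (SE 1.15), and at -0.81 without library 14 and -0.79 without library 16. SNORD27 had 5 reads over all 8 libraries and SNORD25 had 0 reads in any library, where 3 reads correspond to 0.117 to 0.157 CPM.

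**Figure D3:**
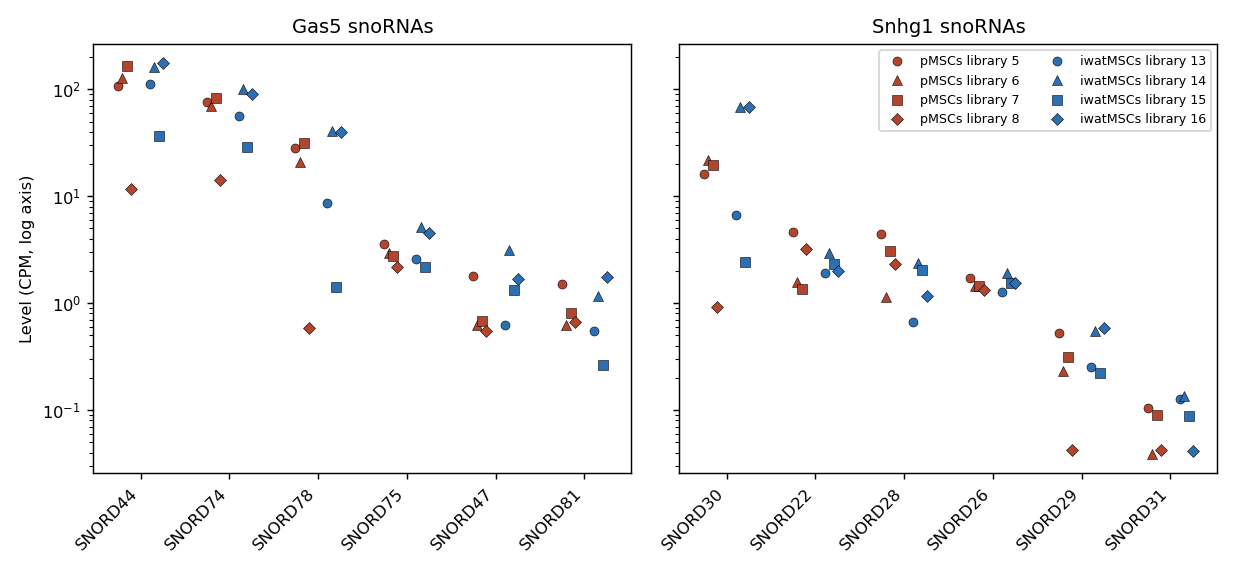
Levels of 6 Gas5 snoRNAs and 6 Snhg1 snoRNAs by library, in CPM on a log axis, with pMSCs in red and iwatMSCs in blue. Within Gas5, SNORD78 spans 0.585 to 41.1 CPM and SNORD75 spans 2.17 to 5.16 CPM, and within Snhg1, SNORD30 spans 0.919 to 68.3 CPM and SNORD26 spans 1.26 to 1.90 CPM.

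Between the tissues, none of the 194 snoRNA rows was called at an edgeR adjusted p under 0.05, while 3.76% of all 3861 rows tested were. The lowest adjusted p among the snoRNA rows was 0.162. At an unadjusted p under 0.05, 3 rows (1.55%) were higher and 9 (4.64%) lower in pMSCs, against 7.15% and 8.13% of all rows tested. The 2 tissues did not overlap for 0 snoRNA rows in the higher direction, where 5.91% of all rows did not, and for 3 (1.55%) in the lower direction, where 5.57% did not. Log2 fold changes of pMSCs over iwatMSCs were above 0 for 52 rows and below 0 for 142, with a median of -0.35 against -0.17 over all rows tested. The split kept its direction with DESeq2 size factors (142 below, median -0.34), with TMM factors from mature miRNAs (145 below, median -0.35) and with library totals alone (149 below, median -0.44). It was 103 below with TMM factors from the snoRNA rows, which centre these rows by construction. Leaving out 1 library moved the median of the snoRNA rows from -0.56 without library 5 to -0.12 without library 14, where 110 rows were below 0 and the median over all rows was -0.18. It was -0.51 without library 13, -0.15 without library 16 and -0.18 without library 8. Without library 7 edgeR called 0 snoRNA rows, beside 3.26% of all rows, and 6 had an unadjusted p under 0.05, beside 12% of all rows. DESeq2 called 2 snoRNA rows higher and 4 lower, beside 12.6% of all rows with an adjusted p, and these 6 are described next, 5 of them (all but SNORD99) chosen after their values were seen.

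**Figure D4:**
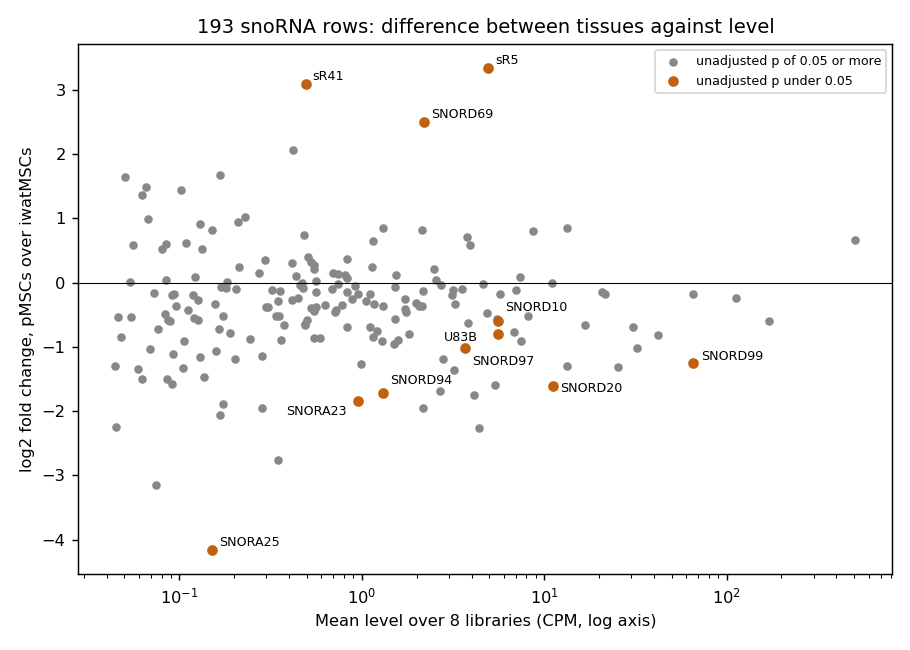
Log2 fold change of pMSCs over iwatMSCs from edgeR against mean level over 8 libraries (CPM, log axis), 1 point for each of 193 snoRNA rows (SNORA33, with 0 reads in pMSCs, is left out), with unadjusted p under 0.05 in orange and named. SNORD69, sR5 and sR41 lie above 2.5 and SNORD99 at -1.25, and none passed an adjusted p under 0.05.

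SNORD99 of the host gene Snhg12, a guide of methylation in large-subunit rRNA, held 58.4, 36.9, 37.2 and 23.1 CPM in pMSCs libraries 5 to 8. It held 46.3, 85.9, 98.7 and 140 CPM in iwatMSCs libraries 13 to 16. The tissues overlapped only through pMSCs library 5 and iwatMSCs library 13, and library 15 was not low here. Mean levels were 38.9 ± 14.6 and 92.8 ± 38.8 CPM (SD, n = 4 each), a log2 fold change of -1.25 (SE 0.38) with an edgeR adjusted p of 0.162 and an exact permutation p of 0.0571. The DESeq2 adjusted p was 0.0256, and over all alternatives the adjusted p ranged from 0.0256 to 0.627. SNORA44, an H/ACA box snoRNA of the same host gene, held 5.39, 4.56, 5.69 and 2.67 CPM in pMSCs and 4.95, 5.47, 3.39 and 4.77 CPM in iwatMSCs, with a log2 fold change of -0.02 (SE 0.30).

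SNORD94, a guide of methylation in U6 spliceosomal RNA, held 1.15, 0.507, 0.271 and 0.501 CPM in pMSCs and 0.882, 2.17, 3.12 and 1.87 CPM in iwatMSCs. SNORA23, the H/ACA box snoRNA shown above, held 0.680, 0.273, 0.541 and 0.167 CPM and 0.420, 1.54, 2.07 and 1.95 CPM. In both rows libraries 14, 15 and 16 were above every pMSCs library and library 13 overlapped them. The log2 fold changes were -1.72 (SE 0.56) and -1.84 (SE 0.64), with edgeR adjusted p of 0.187 and 0.225 and DESeq2 adjusted p of 0.0274 and 0.0485. These rest on few reads, 6 to 71 per library for SNORD94 and 4 to 47 for SNORA23.

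SNORD10 showed the smallest within-tissue spread of these rows, with 5.18, 4.29, 4.60 and 3.72 CPM in pMSCs and 5.79, 6.88, 6.29 and 7.79 CPM in iwatMSCs, so every pMSCs library lay below every iwatMSCs library. The log2 fold change was -0.59 (SE 0.21), the edgeR adjusted p 0.235 and the DESeq2 adjusted p 0.0114. Its two-sided exact permutation p was 0.0286, the smallest that 4 libraries against 4 can give, and was not adjusted for the rows looked at. The other rows that did not overlap were SNORA74, at 0.351 to 1.44 CPM in pMSCs and 1.63 to 2.62 CPM in iwatMSCs, and SNORA41, at 0 to 2 reads per library in pMSCs and 2 to 5 in iwatMSCs, where equal counts of 2 reads are separated only by the scaling of the libraries.

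The 3 rows with an unadjusted p under 0.05 towards pMSCs were SNORD69, sR5 and sR41, and in each pMSCs library 8 stood far below the other pMSCs libraries. The sR41 row, chosen after its values were seen and named for an RNA of another organism, had 12, 54, 17 and 1 reads in pMSCs and 1, 6, 0 and 2 in iwatMSCs, with an edgeR adjusted p of 0.321. SNORD69 of the host gene Gnl3, which encodes nucleostemin, held 5.44, 3.86, 5.46 and 0.125 CPM in pMSCs libraries 5 to 8 and 0.378, 0.995, 0.440 and 0.787 CPM in iwatMSCs libraries 13 to 16. The row named sR5, an Rfam family of archaeal RNAs, held 11.3, 8.54, 15.6 and 0.376 CPM and 0.756, 1.18, 0.0879 and 1.49 CPM. For SNORD69 library 8, with 3 reads against 99 to 121 in the other pMSCs libraries, lay below every iwatMSCs library, and for sR5 it lay within the iwatMSCs range. The log2 fold changes were 2.51 (SE 0.91) and 3.34 (SE 1.08), with edgeR adjusted p of 0.246 and 0.183 and exact permutation p of 0.143 and 0.114. DESeq2 gave adjusted p of 0.0493 and 0.0117. Without library 8, edgeR called both higher in pMSCs, with log2 fold changes of 2.91 and 3.74 and adjusted p of 0.0130 and 0.0459, the only 2 snoRNA rows called there, beside 1.48% of all rows called higher. Without libraries 8 and 15, a fit chosen after the data were seen, edgeR called the same 2 rows, at 2.80 and 3.41. Their adjusted p were 0.0312 and 0.00994, beside 2.43% of all rows called in either direction. Both fits leave out library 8, the pMSCs library that went against the difference in these rows, so their calls are no independent support for it. Over all alternatives the adjusted p ranged from 0.0130 to 0.715 for SNORD69 and from 0.00994 to 0.627 for sR5.

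The 8 rows of snoRNAs that process the rRNA precursor all had a mean of at least 1 read and none was called, with 3 fold changes above 0, 5 below and a median log2 fold change of -0.40 against -0.17 over all rows. After U3, SNORD14 held 19.6, 8.38, 7.22 and 16.8 CPM in pMSCs and 10.4, 23.2, 25.5 and 23.0 CPM in iwatMSCs. In iwatMSCs library 13 stood below the other 3, and the tissues overlapped. Its log2 fold change was -0.66 (SE 0.41, edgeR adjusted p = 0.436). The SNORA73 family, H/ACA box RNAs known as U17, held 6.17, 2.57, 2.17 and 1.04 CPM and 2.35, 7.92, 2.86 and 5.35 CPM, with a log2 fold change of -0.63 (SE 0.60) that was -1.26 without library 5, -0.35 without library 8 and -0.24 without library 14. U8, needed for large-subunit rRNA in frog oocytes, ranged from 0 to 0.452 CPM, and U13 ranged from 0.0440 to 1.34 CPM.

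Of 24 rows with a gene in another ribosomal protein gene, 21 had a mean of at least 1 read. None was called, 7 fold changes were above 0 and 14 below, and the median log2 fold change was -0.17, equal to that of all rows to 2 decimals. SNORD15 was among the even rows, with 7.63, 4.45, 4.02 and 5.43 CPM in pMSCs and 4.49, 7.06, 7.83 and 4.89 CPM in iwatMSCs. SNORD73 was uneven, with 3.03, 2.46, 1.94 and 0.167 CPM and 1.01, 8.46, 1.49 and 14.6 CPM. The Rpl13a rows, which have been linked to lipid-induced stress in cultured cells, were low: SNORD35 ranged from 0.132 to 1.67 CPM and the family of SNORD32 and SNORD33 from 0.361 to 0.879 CPM, and neither was called.

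H/ACA rows were less abundant in reads. SNORA24, within Snhg8, held 4.34, 5.73, 5.55 and 3.30 CPM in pMSCs and 3.95, 4.43, 0 and 3.11 CPM in iwatMSCs. Library 15 had 0 reads against 75 to 98 in the other iwatMSCs libraries, where 3 reads correspond to 0.132 CPM. SNORA21 held 2.38 to 4.76 CPM in pMSCs and 3.03 to 5.34 CPM in iwatMSCs. Over the 49 H/ACA rows 13 fold changes were above 0 and 36 below, with a median of -0.33, and over the 86 C/D box rows 15 were above and 71 below, with a median of -0.38, against -0.17 over all rows.

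Among the 13 rows classed as scaRNA by name none was called, and the median log2 fold change was -0.18. SCARNA6 held 1.10, 1.60, 1.49 and 0.878 CPM in pMSCs and 0.336, 8.68, 0.616 and 6.67 CPM in iwatMSCs, so libraries 14 and 16 alone stood above the pMSCs range. Its log2 fold change was -1.68 (SE 0.95, edgeR adjusted p = 0.377), and -1.002 without library 14. SCARNA7, SCARNA8 and SCARNA13 ranged from 0.209 to 2.21 CPM over all libraries.

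The imprinted snoRNA clusters held few reads. Among the maternally expressed snoRNAs of the Dlk1-Dio3 region, the SNORD113/SNORD114 family held 1, 5, 2 and 0 reads in pMSCs libraries 5 to 8. It held 2, 21, 0 and 34 reads in iwatMSCs libraries 13 to 16. Libraries 14 and 16 held most of its reads, the log2 fold change was -2.76 (SE 1.49) and the edgeR adjusted p 0.377. In the paternally expressed Snurf-Snrpn region, SNORD64 held 13, 18, 23 and 0 reads and 8, 19, 1 and 18 reads, with a log2 fold change of 0.28 (SE 1.18) that changed sign without library 7 or 15. SNORD116, a snoRNA of the Prader-Willi region in human, had 1 read in all 8 libraries together, SNORD109A had 2 and SNORD107 had 0.

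Just inside the mean of 1 read, sR2, SNORA8 and SNORA33 each had a mean of exactly 1. Just outside, SNORD34, sR45 and the Z152 family each had a mean of 0.875. SNORA33 had 0 reads in the 4 pMSCs libraries and 2, 3, 0 and 3 reads in iwatMSCs libraries 13 to 16, so it passed the mean of 1 through iwatMSCs alone and no fold is given. Rows near the threshold thus differed by 1 read in total.

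The value that the authors deposited as TPM gave a second view of the same libraries. It is a whole number (0.001 stands for 0) that never exceeded the read count of the same row and library. Summed over snoRNA rows it came to 96.7% to 97.9% of the reads in 7 libraries and to 6.60% in pMSCs library 7. Library 7 did not stand apart in snoRNA reads, of which it had 37108. Among 113 rows with a mean of at least 10 reads, the deposited TPM of library 7 ranged from 0.853% to 100% of the reads with a median of 31.2%, against 94.4% to 100% over the other 7 libraries together. The percent was lowest for the row with most reads, U3, which had 15122 reads in library 7 and a deposited TPM of 129. SNORD43 had 5060 and 105, while SNORD57, with fewer reads, had 496 and a higher deposited TPM of 141. On the deposited TPM, edgeR called 0 of the 194 rows with all 8 libraries, beside 1.11% of all rows, and 6 had an unadjusted p under 0.05, beside 8.24% of all rows, but the median log2 fold change was 0.72, and it was -0.39 without library 7.

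**Figure D5:**
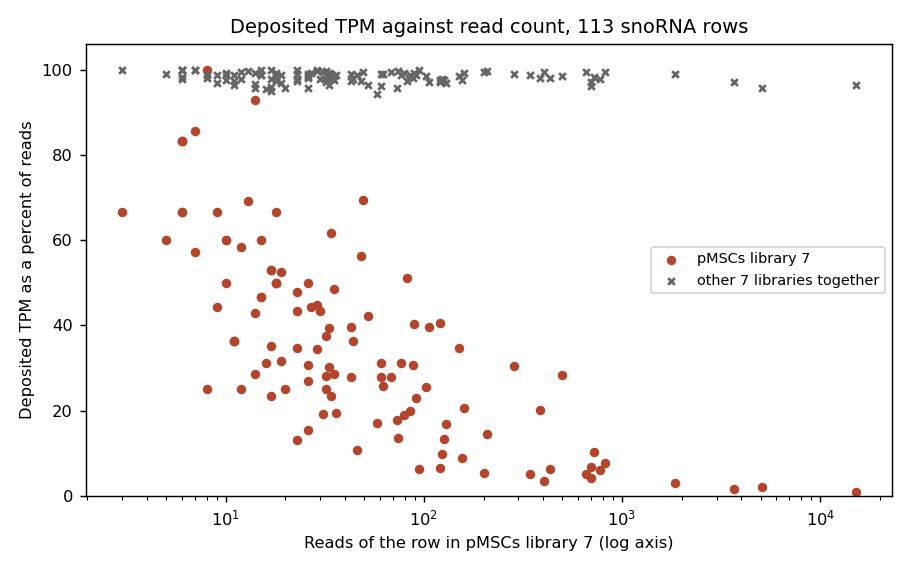
Deposited TPM as a percent of the read count for 113 snoRNA rows with a mean of at least 10 reads, against the row's reads in pMSCs library 7 (log axis), for library 7 (red points) and for the other 7 libraries together (grey crosses). Library 7 lies at 0.853% for U3, the row with most reads, and the other libraries lie between 94.4% and 100%.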

How the data were processed

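Small RNA of sorted and expanded pMSCs and iwatMSCs was sequenced from libraries with unique molecular identifiers, 4 per tissue. The read count of each small RNA row was deposited by the authors, whose notes name Bowtie2 with no version. The genome build and the releases of the small RNA databases are not given in the sources used here. The score that the authors deposited as TPM is by its name a value scaled to a fixed total, but its columns hold whole numbers that sum to 2059865 to 11151487, so it served only as an alternative. All 16 value columns were used, although the study left out an outlier library that its methods do not name.

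All rows with a mean of at least 1 read over 8 libraries were tested together with edgeR 4.0.16 under R 4.3.3 (TMM factors, two-sided quasi-likelihood test, no term but tissue), with Benjamini-Hochberg adjustment over 3861 rows and calls at an adjusted p under 0.05. Standard errors were approximated by dividing each absolute log2 fold change by the root of its F. Exact two-sided permutation tests of mean log2(CPM + 1) were run in Python 3.11.15 (scipy 1.17.1, pandas 2.3.3, numpy 2.4.6). Plots were made with matplotlib 3.10.9. The fit was tested on simulated data. Alternatives were each library left out, DESeq2 1.42.0, its size factors, TMM from mature miRNAs or from snoRNAs, library totals, limma 3.58.1 on log2 of the deposited TPM + 1, no filter and a mean of at least 10. edgeR on the deposited TPM, with and without library 7, and the fit without libraries 8 and 15 were chosen after seeing the data.

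The members and the lists were chosen with earlier results of these data known. Named rows are the 10 with the highest mean CPM in each tissue, up to 4 of each list, and 3 on each side of the mean of 1. Rows named for other reasons are marked. Gene places, sequences and the host genes of matched genes come from GENCODE M21 (GRCm38), matched by name. The Gas5, Snhg1 and Rpl13a rows were instead listed by snoRNA number. Of the genes matched in GENCODE M21, 2 lay in Gas5 and 1 in Snhg1. Rows at 0 reads are set beside a floor of 3 reads per library, and intervals and floors cover counting error only.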

Additional observations from a re-analysis of the deposited data

Results flagged for a closer look

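The 50 tissue groups of 4 libraries looked at covered the snoRNA share, the deposited TPM and 23 named rows. In 5 of these groups, 1 library stood far from the other 3. Chance alone gives about 1 in 20 for independent, normally distributed values. The groups share the same libraries, so this rate cannot show an excess over chance. In pMSCs library 7 the deposited TPM came to 6.60% of the snoRNA reads, against 96.7% to 97.0% in the other pMSCs libraries. U3 was at 479 CPM in pMSCs library 8, below 665 to 682 CPM in the other 3. SNORD104 was at 1.42 CPM in library 8, below 29.7 to 31.6 CPM. SNORD50 was at 34.0 CPM in pMSCs library 5, above 16.5 to 18.1 CPM. SNORD14 was at 10.4 CPM in iwatMSCs library 13, below 23.0 to 25.5 CPM.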

How the results depend on the processing

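The number of snoRNA rows called was 0 and ranged from 0 to 2 with each library left out in turn, 2 only without pMSCs library 8. It was 6 with DESeq2, which gave 147 of the 194 rows an adjusted p, and 2 without libraries 8 and 15, and 0 under the other alternatives. Of 23 fold changes recomputed, 14 kept their direction under all alternatives run. The cause of the reversals below was not tested. With each library left out in turn, log2 fold changes ranged from -0.55 to 0.14 for SNORD44, -0.41 to 0.15 for SNORD74, -0.52 to 0.29 for SNORD78, -0.36 to 0.36 for SNORD57, -0.14 to 0.17 for SNORA44 and -0.11 to 0.69 for SNORD64. With TMM from snoRNAs they were 0.043, 0.084, 0.33, 0.20 and 0.12 for SNORD44, SNORD74, SNORD78, SNORD57 and SNORA44. With edgeR on the deposited TPM they were 1.04, 0.51, 0.76 and 0.34 for SNORD57, SNORA44, the SNORA73 family and SNORD10, and with limma on it -0.92 for U3 and -0.67 for SNORD64, which was at -0.11 with edgeR on the deposited TPM without library 7. SNORA44 was at 0.0013 with no filter, 0.015 with a mean of at least 10 and 0.072 without libraries 8 and 15. The median over all rows moved from -0.17 to 0.00 with TMM from snoRNAs and to -0.98 with limma on the deposited TPM. The snoRNA share was 0.224% in pMSCs and 0.307% in iwatMSCs as a share of the deposited TPM. That pMSCs value includes library 7, whose deposited TPM came to 6.60% of its snoRNA reads, so the 2 shares are not alike in make-up. Of the reads, snoRNA rows without U3 took 0.0702% in pMSCs and 0.106% in iwatMSCs. With each library left out, the share of reads of all snoRNA rows ranged from 0.119% to 0.150% in pMSCs and from 0.118% to 0.175% in iwatMSCs. No paired analysis was possible because the labels number pMSCs 5 to 8 and iwatMSCs 13 to 16, so no number is shared.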
